A study of Mus musculus with 8 samples.

Results

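Mouse bone marrow progenitors transduced with HOXA9 were compared with progenitors labelled as not transduced (NT), both with Ring1b present. The comparison uses 2 of the 8 libraries of the study, and takes in every RefSeq transcript with a normalised read count of at least 20 in the higher of the pair, which 10882 of 19353 transcripts had. The cells were lineage-negative C57BL/6 bone marrow cells, enriched with a progenitor kit. The transduced cells were infected, and whether NT cells carried an empty vector is not known. Cells were kept for 72 h in ethanol (control) or 4-hydroxytamoxifen (OHT), and collected for polyadenylated RNA sequencing. The labels give HOXA9 control and NT control cells as Ring1b WT, and the HOXA9 and NT cells under OHT as Ring1b KO. All of them, NT included, carry the Ring1a-/- and Cdkn2a-/- knockouts, so no group has an intact Ring1a or Cdkn2a. PML-RARa control and MLL-AF9 control cells, transduced with a leukaemia fusion gene, share the genotype of the main pair and are set beside it for single values. The NT columns are headed "Empty", the labels name no vector, promoter or sorting step for the transduced cells, and the number of mice behind a library is not given. There is 1 library a side, hence no replicate and no test: differences are described by their size, and the intervals given are exact 95% binomial intervals of the read ratio, which cover counting error only.

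HOXA9 is a homeobox transcription factor of the posterior HOXA cluster that is active in stem and early progenitor cells and is switched off as blood cells mature. Its forced or persistent expression keeps myeloid progenitors growing in an immature state and is a common feature of acute myeloid leukaemia. It binds DNA together with PBX and MEIS homeodomain partners, and its known target genes include receptors and transcription factors of stem and myeloid cells. Mast cells, basophils, megakaryocytes and red cells depend on the zinc finger factors GATA1 and GATA2.

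The deposited totals were 6998223 reads in NT control and 6657911 in HOXA9 control, with size factors of 1.21 and 1.20, so both libraries had like depth. Values are normalised read counts, each a whole number of reads divided by the size factor of its library, and no value is below the entry of 1 read (0.827 in NT control, 0.830 in HOXA9 control). Whether such an entry stands for 0 reads or 1 read is not known, so no fold is given for a gene that stands at it, and its log2 difference is uncertain. A difference is HOXA9 minus NT on the log2(value + 1) scale, which understates the change of low transcripts. The label of the cells was checked against markers. Ly6a, the gene of the stem cell antigen Sca-1, stood near the lowest entry at 2.48 in NT and 5.81 in HOXA9, and Cd34 stood at 96.8 and 59.8. Genes of granule-bearing myeloid cells were abundant in both, with Mpo (myeloperoxidase) at 3801 and 3511 and Elane (neutrophil elastase) at 1272 and 1334. The libraries thus held granulocyte transcripts and next to no Ly6a. In bulk RNA fewer cells of a type and less RNA per cell cannot be told apart.

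Transcripts of the introduced gene separated the libraries. Hoxa9 stood at 20.7 in NT control and 249.9 in HOXA9 control, a 12.1-fold difference (8.03 to 18.97). It was 23.9 in PML-RARa control, 122 in MLL-AF9 control, 6.23 in NT under OHT and 252.5 in HOXA9 under OHT. Both libraries labelled HOXA9 were thus above the others, and the MLL-AF9 library was the next highest. The labels do not say whether the introduced sequence is mouse or human, and reads of a human sequence would count only where they align to the mouse gene. Rnf2, the gene of Ring1b, was at 666 in NT and 896 in HOXA9. Reads were also present at the knocked-out genes, with Ring1 at 109.2 and 191 and Cdkn2a (NM_009877) at 25.6 and 67.3. The deleted exons are not given in the labels, so these whole-transcript values check neither knockout.

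Of the 10882 transcripts, 1257 (11.6%) were at least 2-fold higher in HOXA9 than in NT and 794 (7.3%) at least 2-fold lower, while 8831 lay within 2-fold. The median difference was -0.07 and the middle portion of the transcripts, from the lower to the upper quartile, ran from -0.37 to 0.34. The upper tail was longer, with a 95th percentile of 2.11 against a 5th percentile of -1.37. Of the transcripts that were higher, 593 (47.2%) passed the filter through the HOXA9 library alone, and 386 (48.6%) of those that were lower passed through NT alone. Such a transcript had to differ to be counted. Among the 432 transcripts that reached 2000 in either library, 9 were higher and 15 lower.

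**Figure D1:**
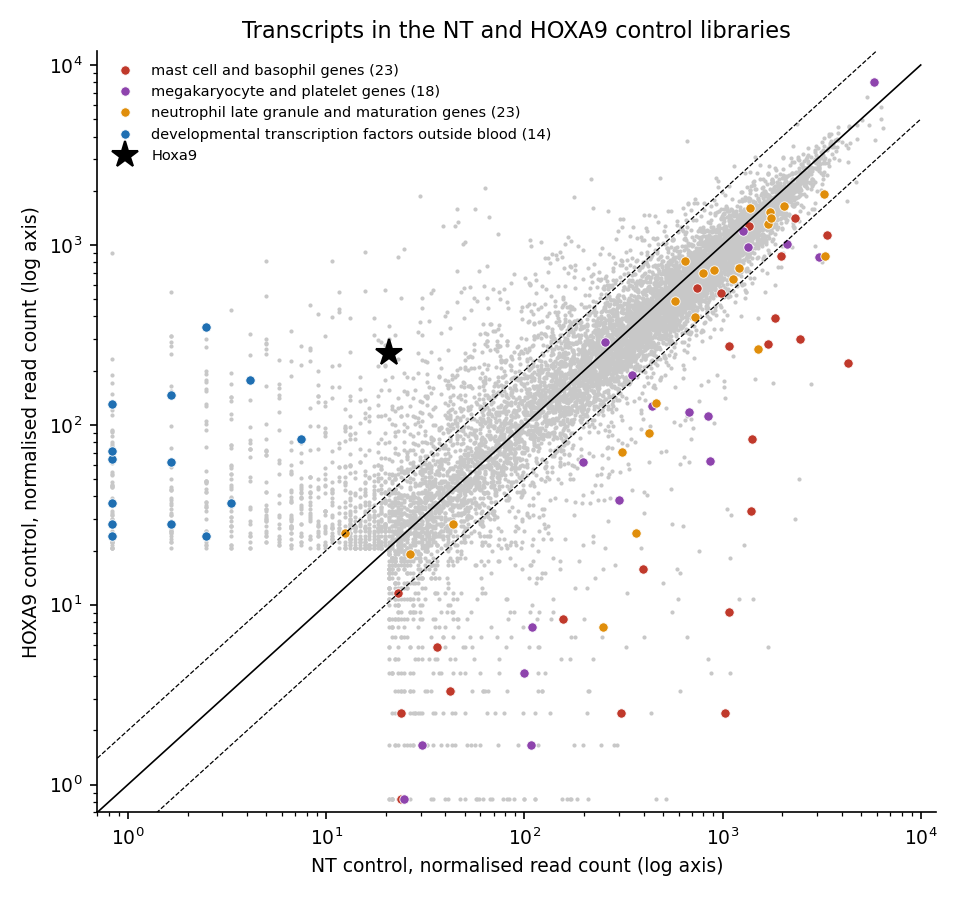
Normalised read count of each of the 10882 transcripts in the NT control library (horizontal, log axis) and the HOXA9 control library (vertical, log axis), with the line of equality and dashed lines at 2-fold. Mast cell and most megakaryocyte genes lie below the line, the developmental transcription factors lie along the upper left, and Hoxa9 (star) stands at 20.7 in NT and 249.9 in HOXA9.

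The list of mast cell and basophil genes had the lowest median difference of the 29 gene lists. Most members named below are mast cell genes or shared ones, so a difference particular to basophils is not shown. Of 29 transcripts on this list, 23 passed the filter, 10 of them through NT alone; 18 were at least 2-fold lower in HOXA9, none was higher, and the median difference was -2.84 against -0.07 for all transcripts. Over the 21 members with a mean of at least 20 across the 8 libraries, a filter that rests on all groups, 16 were lower (7.0% of all transcripts under that filter) and none was higher (10.7%). The summed value of the list went from 28066 in NT to 7450 in HOXA9. The 6 members below the filter reached at most 14.9, and of the 8 members at or under 0.5 reads per base of transcript, 7 were lower.

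Chymase genes, which encode the chymotrypsin-like proteases of mast cell granules, showed the largest differences. Mcpt2 was at 1031 in NT control and 2.49 in HOXA9 control, 414-fold lower (141 to 2010). Mcpt4 went from 1078 to 9.13, 118-fold lower (65.8 to 237), and Cma1 from 1410 to 83.9, 16.8-fold lower (13.8 to 20.8). Mcpt1, Mcpt2 and Mcpt4 are close copies of each other, so the reads of a single copy are uncertain, but all were low in HOXA9. The tryptase genes Tpsb2 (1696 and 280) and Tpsab1 (24.0 and the lowest entry, 0.830) were also lower, and they too share sequence. Granule genes nearer the threshold were the histamine-forming enzyme gene Hdc, at 1976 and 865, and Cpa3, the mast cell carboxypeptidase, at 2321 and 1405. Cpa3 was 1.65-fold lower (1.56 to 1.76), within 2-fold. It held 1.94 reads per base of transcript in its deepest library. The ratios of such very abundant transcripts may be compressed in these tables, which was not tested.

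Most receptors of mast cells were lower as well, by smaller ratios than Mcpt2 and Mcpt4. Fcer1a, the alpha chain of the high-affinity IgE receptor, was at 1388 in NT control, 33.2 in HOXA9 control, 1162 in PML-RARa control and 21.2 in MLL-AF9 control, with 1906 in NT and 69.7 in HOXA9 under OHT. It was 41.8-fold lower in HOXA9 than in NT (30.6 to 58.7), and the NT and PML-RARa libraries stood together above the HOXA9 and MLL-AF9 libraries. Il1rl1, which encodes the receptor for interleukin-33, followed the same order in the better covered of its transcripts, at 4273 (NT), 219 (HOXA9), 3178 (PML-RARa) and 75.2 (MLL-AF9). Ms4a2, the beta chain of the IgE receptor, was at 156 and 8.30. Kit, the receptor for stem cell factor that mast cells and progenitors need, was at 24.0 and 2.49, on few reads. Slc18a2, which loads amines such as histamine into granules, was at 2467 and 299, 8.26-fold lower (7.40 to 9.23). Fcer1g, a receptor chain that many myeloid cells also carry, was at 740.5 and 574.5, and Srgn, a granule proteoglycan shared with neutrophils, at 1357 and 1277. The members within 2-fold thus included those shared with other myeloid cells.

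The transcription factors of these cells were lower as well. Gata2 was at 3379 in NT and 1129 in HOXA9, 2.99-fold lower (2.81 to 3.18), and Gata1 at 680.1 and 62.3, 10.9-fold lower (8.62 to 14.0). In PML-RARa control they were at 3765 and 539, and in MLL-AF9 control at 536 and 58.2. Since GATA factors are known to act at promoters of mast cell genes, the 250 bases before the start of each mast cell gene that was lower were read from the RefSeq promoter table of GRCm38.p6 (the deposited values use mm9) and searched on both strands for AGATAA and TGATAA. Of 16 symbols 13 were matched, by the first start listed for each, and 8 of the 13 (61.5%) held a match: Mcpt4, Mcpt1, Fcer1a, Il1rl1, Ms4a2, Slc18a2, Il13 and Prss34. The share was 10.8% over the 12651 genes of the tables with a promoter, 9.25% over the 8015 that passed the filter, 14.3% over all genes lower in HOXA9 and 9.05% over all genes higher. Of the megakaryocyte genes that were lower, 3 of 11 held one (27.3%). Mast cell genes within 2-fold were not searched as a group, so the share of 61.5% does not set the lower ones apart from them. A match is a description of the sequence and no evidence that a factor bound there. A HOX-PBX sequence, TGATTTAT, was in 0.515% of the genes lower in HOXA9, 0.442% of those higher and 0.337% of those that passed the filter.

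The windows of 4 of these genes are shown because they carry the match in genes with some of the largest differences among the mast cell genes; capitals mark the match, read 5′ to 3′ on the strand of the gene, and the Fcer1a match lies on the opposite strand. They are Mcpt4 at chr14:56062311-56062560 (minus strand), Mcpt1 at chr14:56017714-56017963 (plus strand), Fcer1a at chr1:173227230-173227479 (minus strand) and Il1rl1 at chr1:40429320-40429569 (plus strand).
Mcpt4: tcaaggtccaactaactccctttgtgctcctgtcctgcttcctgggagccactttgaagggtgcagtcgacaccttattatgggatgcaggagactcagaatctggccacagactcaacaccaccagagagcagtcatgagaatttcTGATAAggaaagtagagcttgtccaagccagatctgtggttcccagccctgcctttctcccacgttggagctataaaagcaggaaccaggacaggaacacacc
Mcpt1: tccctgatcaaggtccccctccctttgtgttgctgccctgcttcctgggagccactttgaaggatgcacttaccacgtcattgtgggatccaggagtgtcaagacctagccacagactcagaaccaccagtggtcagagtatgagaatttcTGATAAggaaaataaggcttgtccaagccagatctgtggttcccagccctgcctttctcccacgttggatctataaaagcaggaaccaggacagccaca
Fcer1a: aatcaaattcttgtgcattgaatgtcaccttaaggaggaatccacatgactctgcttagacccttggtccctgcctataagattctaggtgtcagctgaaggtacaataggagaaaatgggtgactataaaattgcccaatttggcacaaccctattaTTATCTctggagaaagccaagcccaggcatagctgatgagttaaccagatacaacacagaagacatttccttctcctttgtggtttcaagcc
Il1rl1: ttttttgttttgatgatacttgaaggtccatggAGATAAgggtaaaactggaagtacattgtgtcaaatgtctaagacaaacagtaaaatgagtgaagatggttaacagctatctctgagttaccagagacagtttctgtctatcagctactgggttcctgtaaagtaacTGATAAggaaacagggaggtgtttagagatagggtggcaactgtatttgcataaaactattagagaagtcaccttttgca
The matches begin 103 bases before the start in Mcpt4, 99 in Mcpt1 and 92 in Fcer1a, and 217 and 80 in Il1rl1. The Mcpt4 and Mcpt1 windows carry the same match at nearly the same distance, as close copies do, so they are not separate examples.

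Megakaryocyte and platelet genes were lower in the same direction. Of 22 transcripts on the list 18 passed the filter, 5 through NT alone; 13 were at least 2-fold lower (7.3% of all transcripts), none was higher (11.6%), and the median was -2.18. Over the 17 members with a mean of at least 20, 12 were lower (7.0% of all under that filter) and none higher (10.7%). Gp1ba, a subunit of the platelet receptor for von Willebrand factor, was at 866 in NT and 63.1 in HOXA9, 13.7-fold lower (10.9 to 17.6). Its partners Gp9 (100.1 and 4.15) and Gp5 (299.5 and 38.2) and the ligand gene Vwf (844 and 112) were also lower. Itga2b, the platelet integrin alpha IIb, went from 3064 to 857, 3.58-fold lower (3.34 to 3.84). The chemokine genes Ppbp (678 and 118) and Pf4 (443 and 128), which platelets store, were lower in the control pair but nearly level under OHT, with differences of -0.05 and -0.24. Thbs1, thrombospondin, is also made by other cells and was at 5821 and 8055, which keeps the summed value of the list at 17964 in NT and 13107 in HOXA9. Of 18 erythroid transcripts 15 passed, 5 through NT alone and 1 through HOXA9 alone. Of the 15, 6 were lower and 1 was higher, against the same shares of 7.3% and 11.6%. Over the 10 members with a mean of at least 20, 2 were lower (7.0% of all under that filter) and none higher (10.7%). Hemgn went from 139 to 18.3, and the embryonic globin gene Hbb-bh1 from 1.66 to 38.2, while Tfrc, the transferrin receptor, was at 3360 and 2444. Of 8 eosinophil transcripts that passed (of 12), 3 were lower (7.3% of all transcripts), namely Gata1, Alox15 (122 and 14.9) and Il5ra (63.7 and 22.4), while the granule genes Epx (662 and 481.5) and Prg2 (623 and 489) lay within 2-fold.

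**Figure D2:**
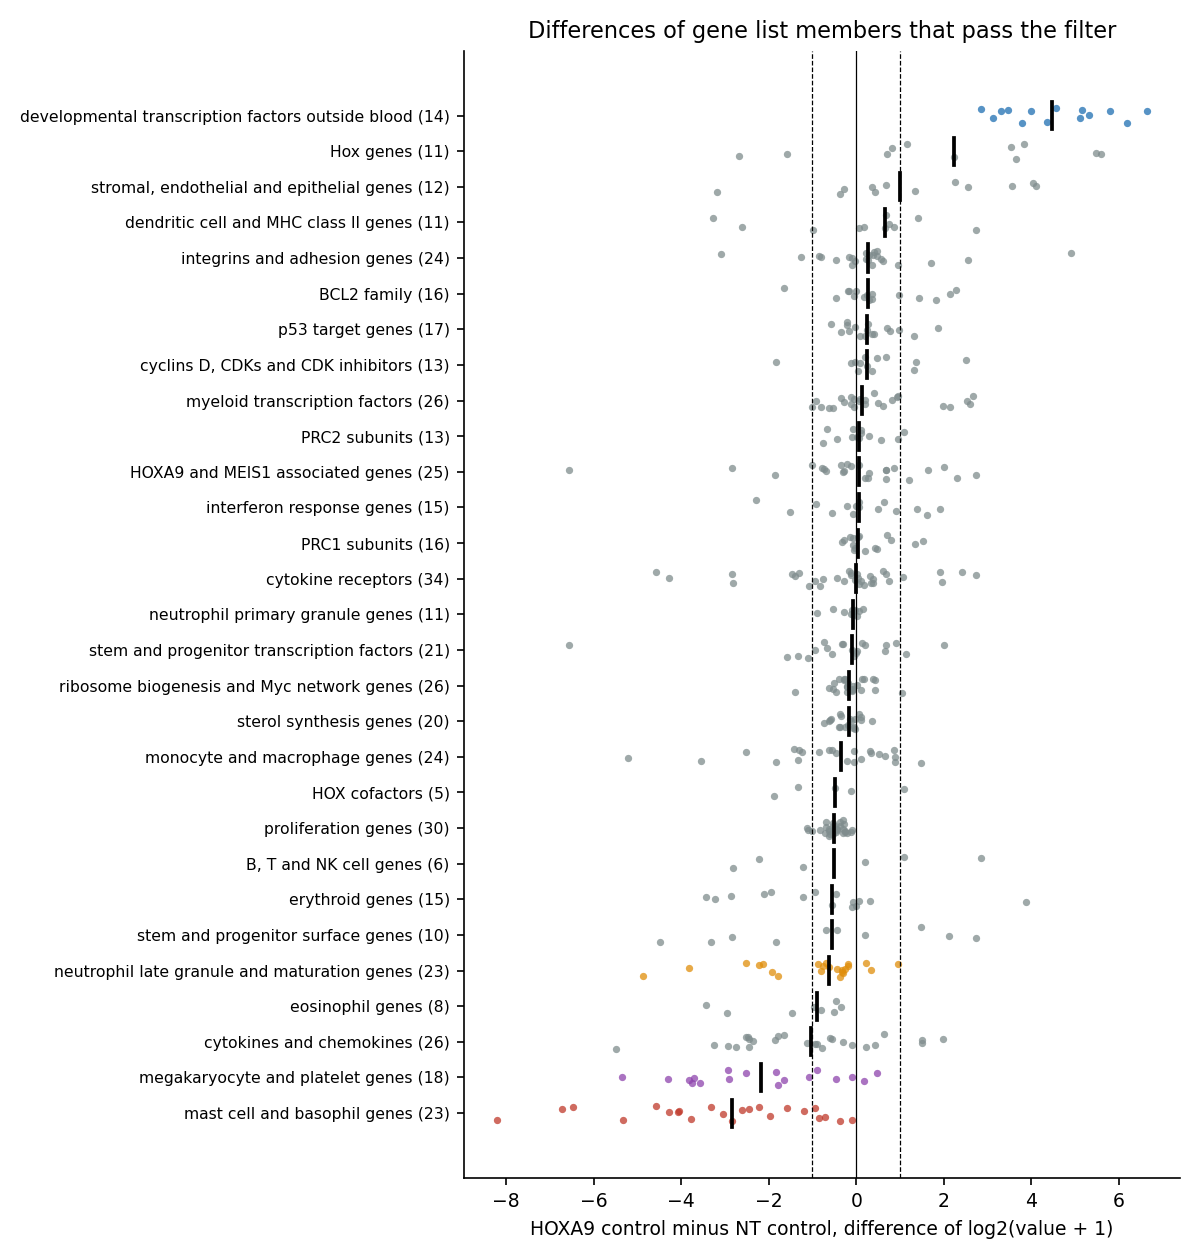
Difference of log2(value + 1), HOXA9 control minus NT control, for the members of each of the 29 gene lists that passed the filter (points, number in brackets), with the list median as a black bar and dashed lines at 2-fold. Mast cell (median -2.84) and megakaryocyte (median -2.18) genes lie farthest left, and the developmental transcription factors (median 4.47), which all passed through the HOXA9 library alone, farthest right.

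In the neutrophil series, early genes were level and part of the late genes were lower. All 11 primary granule transcripts that passed (of 12) lay within 2-fold, with differences from -0.89 to 0.15 and a median of -0.08. Of these, 9 exceeded 0.5 reads per base, where ratios may be compressed, which was not tested. Of the 23 late granule and maturation transcripts, 7 were at least 2-fold lower (7.3% of all transcripts) and none was higher (11.6%), with a median of -0.62. Of the 6 that stayed at or under 0.5 reads per base, 2 were lower. The 7 lower transcripts were Fpr1 and Fpr2, receptors for bacterial formyl peptides, the protease gene Mmp9, the iron-binding protein gene Ltf, Retnlg, Stfa3 and Stfa2l1. Fpr1 was at 249 in NT control, 7.47 in HOXA9 control, 0.957 in PML-RARa control and 5.29 in MLL-AF9 control, 33.3-fold lower in HOXA9 than in NT (17.3 to 73.6). Mmp9 was at 1519 and 263, 5.77-fold lower (5.12 to 6.52), and Ltf at 3289 and 863, 3.81-fold lower (3.56 to 4.09). All 3 transduced control libraries were below NT for Fpr1 and Ltf (PML-RARa 206 and MLL-AF9 294 for Ltf). Other late genes lay within 2-fold, among them Camp (723 and 395), Lcn2 (1129 and 646), Ngp (1747 and 1406) and S100a8 (577.5 and 486.5).

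Monocyte and macrophage genes included members on both sides, more of them lower. Of 33 transcripts 24 passed; 8 were lower (against 7.3% of all transcripts), 1 was higher (11.6%), and the median was -0.34. Cx3cr1, the fractalkine receptor of monocytes, was at 222 in NT and 4.98 in HOXA9, 44.5-fold lower (20.2 to 122). The complement genes C1qa (98.5 and 7.47), C1qb (213 and 36.5) and C1qc (123 and 34.0), which mature macrophages express, were lower too. The lipopolysaccharide co-receptor gene Cd14 was higher, at 285 and 792, 2.78-fold (2.45 to 3.15). Csf1r, the receptor for macrophage colony-stimulating factor, was at 659 and 826, and Ccr2, the chemokine receptor of inflammatory monocytes, at 1375 and 2552, both within 2-fold. Among 11 dendritic cell and MHC class II transcripts that passed (of 21), H2-Eb1 (72.8 and 6.64) and H2-Aa (111 and 17.4) were lower, H2-DMa and Flt3 were higher, and H2-Ab1 (222.5 and 359.5) lay within 2-fold.

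Cytokine and chemokine genes were lower in 13 of the 26 transcripts that passed (of 42), and higher in 3, with a median of -1.03; 9 passed through NT alone. Over all transcripts 7.3% were lower and 11.6% higher, so the count of higher members was at the background. Ccl2, which draws monocytes, was at 637 in NT and 66.4 in HOXA9, 9.59-fold lower (7.61 to 12.2), and the related Ccl7 (179 and 31.6) and Ccl8 (81.9 and the lowest entry) were also lower. Il6 was at 424 and 62.3, 6.80-fold lower (5.33 to 8.79), and the mast cell and T cell cytokine gene Il13 at 36.4 and 5.81. The transcripts that were higher were Il1a (24.8 and 72.2), Il18 (14.9 and 44.0) and Il1rn, the gene of the interleukin-1 receptor antagonist (8.27 and 35.7). Mast cells and macrophages are known sources of several of these chemokines, and the part of the lower mast cell and macrophage transcripts in these values was not tested. Of 34 cytokine receptor transcripts that passed (of 41), 8 were lower, among them Il1rl1, Il7r (105 and 14.1) and Csf2rb2 (4734 and 2225), and 5 were higher. Those were Flt3, Il13ra1 (131.5 and 703), Lifr (29.8 and 118), Il2ra (72.8 and 279) and Il6st (229 and 479). Of the genes for receptor chains of GM-CSF and interleukin-3, Csf2rb (4749 and 3894), Csf2ra (1282 and 1296) and Il3ra (448 and 687) lay within 2-fold. Csf2rb2, which is also one of them, was lower as given above.

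Some other Hox genes also differed between HOXA9 and NT control, in both directions. Of 40 Hox transcripts, with the introduced gene Hoxa9 itself among them, 11 passed, 6 of them through HOXA9 alone. The counts thus describe the list and lend it no support. Hoxa9 is counted among the 7 that were higher, 2 were lower, and the 29 below the filter reached at most 18.3. Hoxa11, another posterior gene of the HOXA cluster, was at 4.14 in NT control, 246 in HOXA9 control, 432.5 in PML-RARa control and 743 in MLL-AF9 control, 59.4-fold higher in HOXA9 than in NT (25.2 to 184). The NT library was the low one among these 4. Hoxd13 was at 2.48, 154, 357 and 5.29 in the same order, so MLL-AF9 stood with NT there. Hoxc9 (2.48 and 49.0) and Hoxb13 (2.48 and 42.3) were higher on few NT reads, Hoxa7 was at 47.2 and 106, and Hoxa5 (38.9 and 63.9) lay within 2-fold. Hoxb4, a stem cell gene of the HOXB cluster, was lower at 178 and 58.9, 3.02-fold (2.30 to 4.004), as was Hoxb2 (26.5 and 3.32).

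Partners and known targets of HOXA9 went in both directions. Meis1 was at 22.3 and 8.30, 2.69-fold lower in HOXA9 (1.26 to 6.23), on few reads. Pbx2 (968 and 897.5) and Pbx3 (173 and 123) lay within 2-fold, and Pbx4 was higher at 59.6 and 128. Of 25 transcripts of HOXA9 and MEIS1 associated genes that passed (of 38), 5 were higher and 4 lower, with a median of 0.07. Over all transcripts 11.6% were higher and 7.3% lower. Flt3, a receptor of progenitors and of many myeloid leukaemias, was at 15.7 and 109.6, 6.97-fold higher (4.29 to 11.95). Sox4, a transcription factor gene, was at 180.4 and 728, 4.04-fold higher (3.48 to 4.70), above PML-RARa (269) and MLL-AF9 (256). Cd28 (37.2 and 187) and Tlr4 (589 and 1351) were also higher. Mecom, which encodes the stem cell factor EVI1, was the extreme on the other side, at 171 in NT control, the lowest entry (0.830) in HOXA9 control, 29.7 in PML-RARa control and 65.6 in MLL-AF9 control. It was at 379 in NT and 2.71 in HOXA9 under OHT, so both HOXA9 libraries were the low ones. Myb (72.0 and 117), Cdk6 (420.3 and 675), Bcl2 (592 and 722) and Erg (574 and 467) lay within 2-fold.

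Among stem and progenitor surface genes 10 of 15 passed, 3 through NT alone and 1 through HOXA9 alone. Of these, 3 were higher (11.6% of all transcripts) and 4 lower (7.3%). Tek (39.7 and the lowest entry) and Slamf1 (50.5 and 4.15), surface receptors of stem cells, were lower, and Procr (25.6 and 114) and Thy1 (547 and 1542) were higher. Myeloid transcription factor genes all passed, 26 transcripts, of which 5 were higher and 1 lower, against the same shares. Of the 26, 2 passed through HOXA9 alone. Irf8, which directs monocyte and dendritic cell fate, was at 138 in NT control, 892 in HOXA9 control, 270 in PML-RARa control and 560.1 in MLL-AF9 control, 6.45-fold higher in HOXA9 than in NT (5.48 to 7.64). Klf4, another monocyte factor, was at 64.5 and 291, 4.503-fold higher (3.51 to 5.83), against 55.5 and 52.9 in the PML-RARa and MLL-AF9 libraries. Fosb (263 and 1538) and Nr4a1 (148 and 592), both genes of the immediate response to stimuli, and Batf3 (7.45 and 50.6) were also higher, and Id2 was lower at 1244 and 616. The core factors Spi1 (1246 and 1148), Cebpa (1390 and 2133) and Cebpe (840 and 477) lay within 2-fold.

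Transcripts absent or near absent in NT formed much of the upper end. Of 39 transcripts of developmental transcription factors outside blood, 14 passed, all through the HOXA9 library alone, so that all had to be higher (4 of them reached 100); the other 25 reached at most 8.30. Zic1, a zinc finger factor of the neural plate, was at 2.48 in NT control, 349 in HOXA9 control, 414 in PML-RARa control and 8.47 in MLL-AF9 control. Zic2 (1.66 and 146), Tbx15 (4.14 and 178), Irx5 (lowest entry and 131) and Pitx1 (lowest entry and 71.4) belonged to the same group. In NT under OHT, Zic2 was at 119.5, near the 121 of HOXA9 under OHT, whereas Zic1 (10.4 and 129) and Pitx1 (2.08 and 389) were low in NT there too. The summed value of the list was 71.1 in NT control, 1323 in HOXA9 control, 892.5 in NT under OHT and 1551 in HOXA9 under OHT. Polycomb complexes are known to keep such genes silent. Subunit genes of PRC1 lay within 2-fold in 14 of the 16 transcripts that passed (of 26). The chromodomain subunits Cbx7 (155.5 and 452.5) and Cbx2 (126 and 320) were higher. Over all transcripts 81.15% lay within 2-fold and 11.6% were higher, so the count of higher PRC1 transcripts was near the background. Of PRC2, 12 of 13 transcripts that passed (of 18) lay within 2-fold, with Eed at 707 and 446 and Suz12 at 52.95 and 55.6.

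Epithelial, endothelial and stromal marker genes passed in 12 of 26 transcripts, 2 of them through HOXA9 alone. Of the 12, 6 were higher (11.6% of all transcripts) and 1 lower (7.3%). Epcam, an epithelial adhesion molecule, was at 20.7 in NT control, 354.5 in HOXA9 control, 889 in PML-RARa control and 47.6 in MLL-AF9 control, and Krt18, an epithelial keratin, at 17.4, 316, 726 and 52.9. Under OHT both were higher in NT (184 and 175) than in HOXA9 (129 and 122). Vcam1 (134 and 797), Flt1 (197 and 938) and Cdh1 (671 and 1700) were higher in the control pair, and Tie1 was lower (82.7 and 8.30). The summed value of this list was 3531 in NT and 6183 in HOXA9, mostly from Vim at 2224 and 1818, Cdh1, Flt1 and Vcam1; the part of other cell types in these values was not tested.

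The transcripts with the largest differences, taken among those that reached 100 in either library, came from several of these groups. Tgfb2, a transforming growth factor ligand gene, had the largest positive difference, at the lowest entry in NT control, 897 in HOXA9 control, 25.8 in PML-RARa control and 391 in MLL-AF9 control. Others at the upper end were Aebp1, Fndc3c1, Wnt10b, Alpl, Spock2, Trim71, Azgp1, AI836003, Zic1 and Mpp3, with NT values from the lowest entry to 4.96 (Aebp1) and HOXA9 values from 171 (Mpp3) to 809 (Aebp1). Azgp1 was at 1.66 in NT and 273 in HOXA9 but at the lowest entry in PML-RARa and 5.29 in MLL-AF9. At the lower end stood Mcpt2, Cadm3, Gnai1, Maob, Grm6, Pxdc1, Bmp7, Nrip3, Mab21l1, Car8, Otop1 and Vegfc. Maob, which encodes monoamine oxidase B, was at 1697 in NT control, 5.81 in HOXA9 control, 498 in PML-RARa control and 4.24 in MLL-AF9 control, 292-fold lower in HOXA9 (141.5 to 727). Bmp7, a bone morphogenetic protein gene, was at 613, 3.32, 272 and 3.18 in the same order. All 12 lower transcripts stood with MLL-AF9 at the low end and PML-RARa between them and NT.

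**Figure D3:**
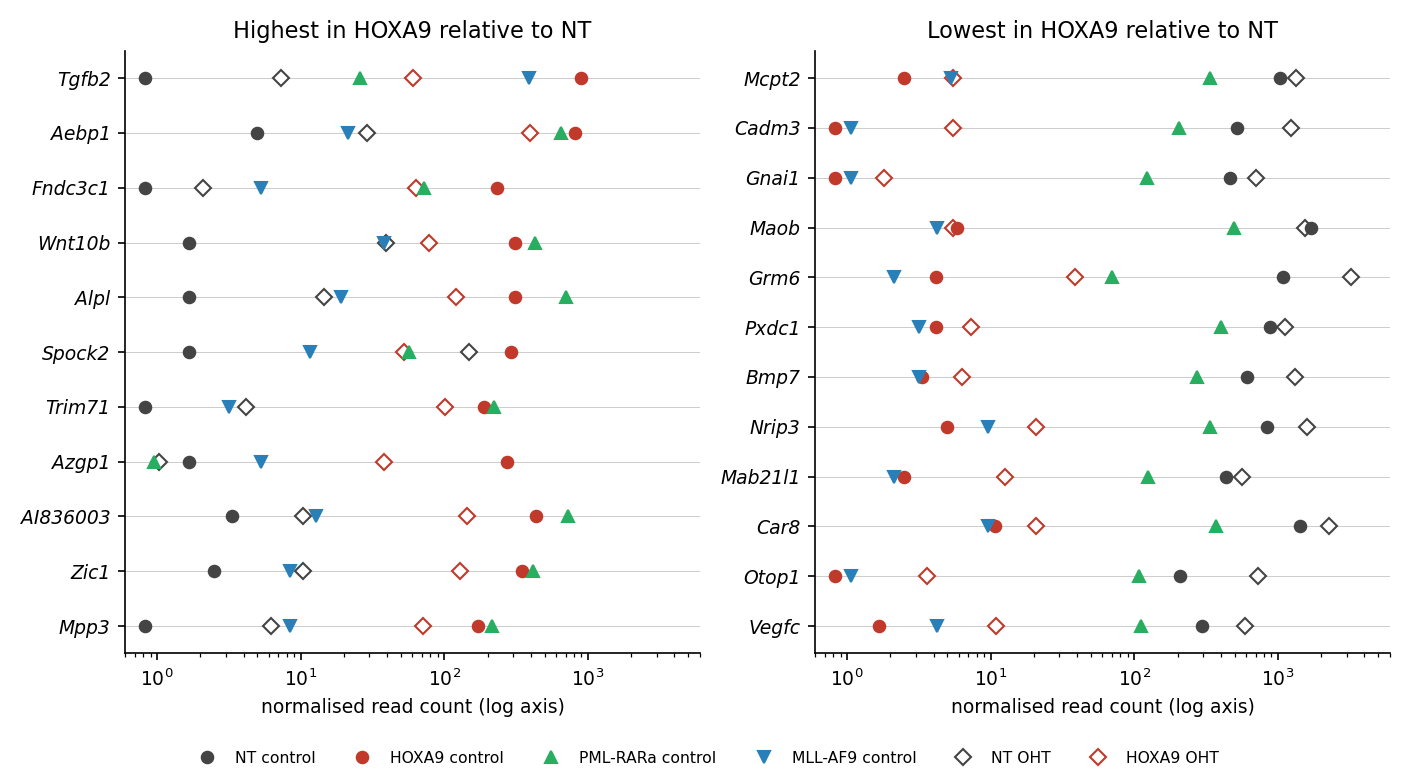
Normalised read count (log axis) of 11 of the 12 transcripts highest and the 12 lowest in HOXA9 control relative to NT control, in 4 control libraries (filled) and the NT and HOXA9 libraries under OHT (open). For the lowest 12, both HOXA9 libraries and MLL-AF9 lie left and both NT libraries right; among the highest, Spock2 lies at 149 in NT and 52.5 in HOXA9 under OHT, the opposite order to the control pair.

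Among transcripts with a value of 2000 or more in 1 of the libraries the differences rest on many reads, with narrow counting intervals. Tgm2 (1.26 reads per base), Alox5 (1.36), Anpep (0.983) and St8sia4 (0.525) exceeded 0.5 reads per base. Ratios may be compressed there, which the intervals do not cover and which was not tested. Ptprf, a receptor phosphatase gene, was at 63.7 and 2067, 32.5-fold higher (25.9 to 41.3). Igf2r, the receptor that clears IGF2 and sorts lysosomal enzymes, was at 217 and 2334, 10.8-fold higher (9.48 to 12.3). Tgm2, the transglutaminase gene, was at 662 and 3769, 5.70-fold higher (5.28 to 6.15), and St8sia4, which makes polysialic acid, at 482 and 2350. On the other side, Igfbp5, an IGF-binding protein gene, was at 2333 and 29.9, 78.1-fold lower (56.3 to 112). The receptor phosphatase gene Ptprg was at 2443 and 49.8, the aminopeptidase gene Anpep at 2783 and 169, and Alox5, which starts leukotriene synthesis, at 3170 and 802.

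Most genes of the cell cycle and of basic growth lay within 2-fold, as did 81.15% of all transcripts. All 30 proliferation transcripts that passed (of 35) had lower values in HOXA9, but 27 lay within 2-fold. Their differences ran from -1.13 to -0.10 over all 30, with a median of -0.51. Of the 30, 20 exceeded 0.5 reads per base, where ratios may be compressed, which was not tested. Among the 10 others the median was -0.65. Mki67 was at 5913 and 3850 and Plk1, a mitotic kinase gene, at 1395 and 786, 1.77-fold lower (1.64 to 1.92). Under OHT the median of the list was 0.65, the other direction. Ccnd1, the cyclin D1 gene, was higher at 146 and 832, 5.71-fold (4.86 to 6.74), and Cdkn2c, a CDK4 and CDK6 inhibitor gene, was lower at 246 and 68.1. Ribosome biogenesis and Myc network genes lay within 2-fold in 24 of 26 transcripts (of 31), and the sterol synthesis genes in all 20. Of 17 p53 target transcripts that passed (of 28), Perp (400 and 1469) and Plk2 (58.7 and 149) were higher and none was lower. Over all transcripts 11.6% were higher and 7.3% lower, so the count of higher p53 targets was at the background. In the BCL2 family 16 of 22 passed, 3 of them through HOXA9 alone, with Bok and a Bcl2l11 transcript (4.14 and 24.1) among these. The death-promoting genes Bmf (106 and 378), Bok (12.4 and 58.1) and Bcl2l11 were higher in 4 transcripts, against 11.6% of all transcripts. Bcl2a1b was lower (74.5 and 23.2, against 7.3%), where copies of Bcl2a1 share sequence. Interferon response genes passed in 15 of 29 transcripts, with Dhx58 (117 and 441), Oas3 (130 and 402) and Isg20 (18.2 and 49.0) higher and Usp18 (61.2 and 11.6) and Ifit2 lower.

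The HOXA9 and NT libraries treated with OHT share no library with the control pair, but differ from it in treatment and in the Ring1b genotype, so they are another comparison and not a replicate. Of 11086 transcripts that passed there, 1431 (12.9%) were higher in HOXA9 and 1127 (10.2%) lower. Of the transcripts higher in the control pair 585 were also higher under OHT, which is 46.5% of the control list and 40.9% of the OHT list. Of those lower, 461 were lower in both, 58.1% and 40.9%, while 59 went from higher to lower and 37 from lower to higher. Counting transcripts that passed the filter in both pairs, all 18 mast cell transcripts lower in the control pair were lower under OHT, as were 11 of the 13 megakaryocyte, 5 of the 7 late neutrophil and 3 of the 6 erythroid transcripts. Of the 14 developmental factors 6 were higher in both pairs. The monocyte and macrophage list had a median of 0.83 under OHT against -0.34, with C1qa, C1qb and C1qc at 0.08, 0.47 and 0.44, and the interferon list had 20 of 25 transcripts higher, with a median of 1.98 against 0.06. These differences between the pairs were not tested.

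**Figure D4:**
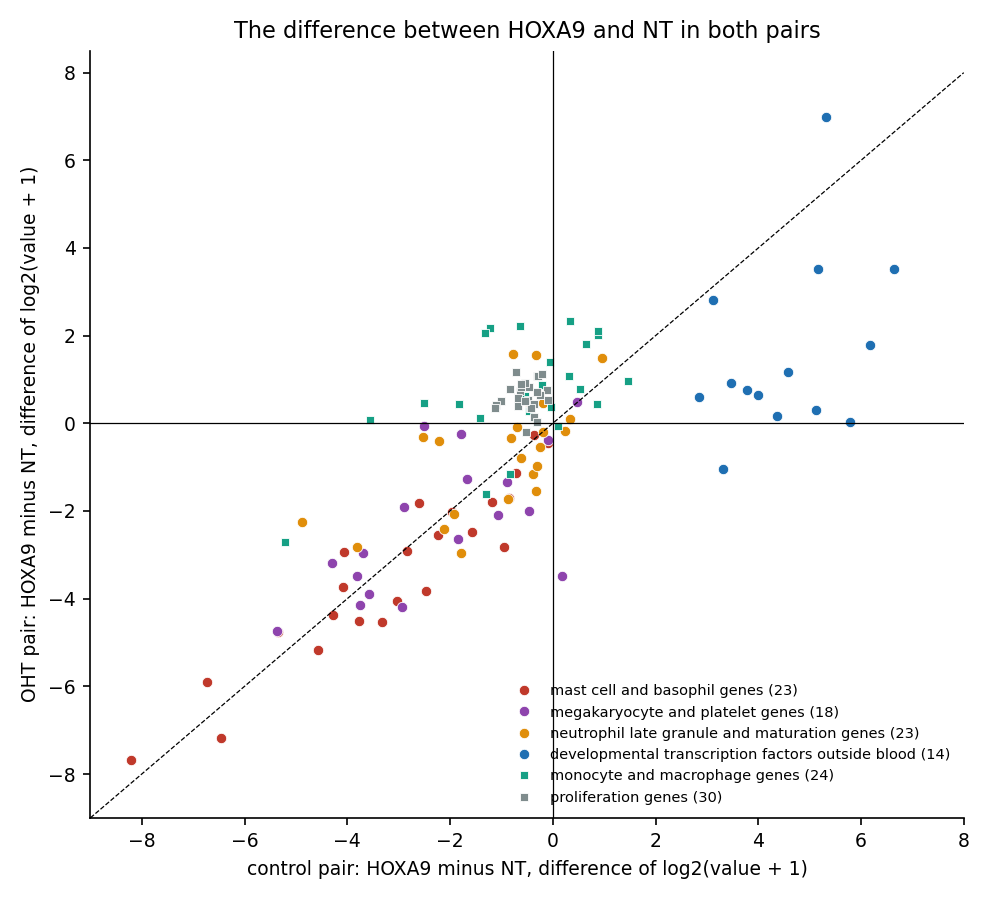
Difference of log2(value + 1), HOXA9 minus NT, in the control pair (horizontal) and the OHT pair (vertical) for the members of 6 gene lists, with the line of equality dashed. Mast cell and most megakaryocyte genes lie in the lower left, proliferation genes (median -0.51 and 0.65) and several macrophage genes lie left of and above the centre, and most developmental factors lie below the line.

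Set beside the 3 other control libraries, 126 of the transcripts were at least 2-fold higher in HOXA9 than in each of them, and 46 at least 2-fold lower. Hoxa9, Sox4, Klf4, Azgp1, Tgfb2 and Pitx1 were among the former and Mecom, Kit, Gp9, Stfa2 and Stfa3 among the latter. All of these are measured against the same HOXA9 library. Kit (2.49 in HOXA9, 6.35 in MLL-AF9) and Gp9 (4.15 and 9.53) rest on few reads, so their order against MLL-AF9 is uncertain. The transduced libraries share the NT control, so their own differences from it are given side by side. Mast cell transcripts had a median of -2.84 in HOXA9 (18 of 23 lower), -0.17 in PML-RARa (5 of 23, where 8.28% of all transcripts were lower) and -3.63 in MLL-AF9 (21 of 23, where 10.7% were lower). The megakaryocyte medians were -2.18, -1.23 and -3.45, and the late neutrophil medians -0.62, -1.65 and -1.16. For cytokines and chemokines the medians were -1.03, -0.13 and -2.11. The differences between these medians were not tested, and in them HOXA9 lay between PML-RARa and MLL-AF9 except for the late neutrophil genes, where it lay nearest to NT.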

How the data were processed

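RNA was sequenced from 8 mouse samples, 1 library each, made with a TruSeq RNA kit that does not mark the strand, per the labels' protocols. The submitters' processing notes name TopHat, DESeq and the build mm9, without versions. Which read counter and annotation were used is not given in the sources used here. Each of 4 deposited tables lists 19353 RefSeq transcripts (17553 symbols, 36 restored from date form). The signal columns are, per the file headers, base means, that is, read counts that the authors normalised. Within a tolerance of 0.02, 100% of the values were whole multiples of the lowest value of their library, and the steps matched size factors computed jointly over the 8 libraries, so values of different tables were compared directly. The tables' ratio (fold change), log2 and p-value columns, deposited by the authors, compare OHT with control cells and were not used.

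The NT and HOXA9 control columns were joined by RefSeq identifier. Transcripts that reached 20 in either library were kept, the difference was taken on log2(value + 1), and at least 2-fold counted as higher or lower. With 1 library a side, no count test was run. Read ratios carry exact (Clopper-Pearson) 95% binomial intervals, computed from the recovered reads (6998223 and 6657911 in all). Genes with several RefSeq transcripts (1509 symbols) held few reads, at a median of 3.03 per kb against 36.7 for single ones, and 1771 of 18873 transcripts with a known length exceeded 0.5 reads per base in some library. Ratios of transcripts over 0.5 reads per base, with Gata2, Itga2b and Ltf among them, may be compressed, which was not tested. Genes sharing near-identical copies may exchange reads.

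The comparison, the gene lists and the alternatives were chosen with earlier results of these data known, and 7 further lists after the values were seen. Named were the 12 highest and 12 lowest differences (reaching 100), the 8 of each among transcripts of at least 2000, the introduced and deleted genes, and up to 4 members per list with the largest difference, besides members whose role the list turns on. Alternatives were pseudocounts of 10 and 0.5, filters of 100 and none, a fold of 4, scaling by library total, by TMM (edgeR 4.0.16) or by the median, and leaving out transcripts over 0.5 reads per base or genes with several transcripts. Calculations used Python 3.11.15, pandas 2.3.3, scipy 1.17.1 and R 4.3.3, and were tested on simulated data. Promoters came from the RefSeq table of GRCm38.p6. A few genes that the naming rule picks are not reported here.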

Additional observations from a re-analysis of the deposited data

Results flagged for a closer look

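The named genes and list members below were at least 2-fold apart in the control pair and at least 2-fold apart in the opposite direction in the OHT pair. Each pair has 1 library a side, and the difference between the pairs was not tested. Lower in HOXA9 without OHT and higher with it were 8 genes. Ccl12 had a difference of -2.94 in the control pair (32.3 in NT, 3.32 in HOXA9) and 1.16 under OHT (156 and 348). For Ccl24 it was -2.48 and 1.45, for the Fc receptor gene Fcgr1 -1.23 and 2.18, and for Ms4a6c -1.32 and 2.07. Tlr7, a receptor for single-stranded RNA, had -1.96 (90.2 and 22.4) and 2.08 (219 and 932). Ifit2, an interferon-induced gene, had -1.52 (187 and 64.8) and 3.55 (141 and 1661). Inhba, the activin A subunit gene, had -1.48 (117.5 and 41.5) and 3.49 (17.7 and 208), and Lin28a, which blocks let-7 maturation, -1.25 (570 and 238) and 1.26 (31.2 and 76.0).

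The opposite order was found for 5 genes. Spock2 had a difference of 6.78 in the control pair (1.66 in NT, 290 in HOXA9) and -1.48 under OHT (149 and 52.5). Ccnd1 had 2.51 (146 and 832) and -1.10 (2105 and 981), so the OHT value of NT was the highest of these 4. Six2, a developmental homeobox gene, had 3.31 (7.45 and 83.0) and -1.04 (120.5 and 57.9). Inhbb had 3.57 (lowest entry and 20.8) and -2.12 (42.6 and 9.05), where the first difference is uncertain because the lowest entry may stand for 0 reads or 1. Gata3 had 1.10 (45.5 and 98.8) and -1.71 (147.5 and 44.3).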

How the results depend on the processing

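The counts moved most with the filter and the fold, and less with the scaling: scaling by library total gave 1394 higher and 732 lower, and centring on the median 1362 and 720. The 1257 higher and 794 lower transcripts became 682 and 425 where transcripts had to reach 100 in either library, 2099 and 1403 with no filter, and 591 and 368 at a fold of 4. The share of higher among all counted transcripts was 61.3%, and from 59.9% to 65.6% over the alternatives. With the filter of 100, 4 of the 14 developmental transcription factors remained, all higher. Without transcripts over 0.5 reads per base, 7 of the 8 mast cell transcripts left and 2 of the 6 late neutrophil ones were lower, because fewer were counted. Of 148 named transcripts past 2-fold, 140 were past it with a pseudocount of 10 and 147 under each of the 3 other scalings. The median of the ephrin and Eph receptor list turned from 1.56 to -0.41 with the filter of 100, which leaves 5 transcripts; among medians within 2-fold, that of the stem and progenitor surface genes turned from -0.56 to 0.85 with that filter, and that of the B, T and NK cell genes from -0.51 to 0.65 without transcripts over 0.5 reads per base. No paired analysis was possible because each group has 1 library. Depth limits genes near 20, where the entry of 1 read makes the ratio uncertain.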

Other observations

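Lists put together after the values were seen describe further genes, and their counts are descriptions of a choice made on these data. Over all transcripts 11.6% were higher and 7.3% lower. In the TGF-beta family, 17 of 39 transcripts passed the filter, with 8 higher and 3 lower in HOXA9. The ligand genes Tgfb2 and Tgfb3 (lowest entry in NT, 120.4 in HOXA9) and the co-receptor gene Tgfbr3 (66.2 and 1423, 21.5-fold higher, 17.2 to 27.3) were higher, as were the activin receptor genes Acvr2a (96.0 and 306) and Acvr2b (27.3 and 79.7). Bmp7 and the receptor gene Tgfbr1 (1980 and 756) were lower, and Tgfb1 was level at 2142 and 2007. Tgfb3 was at 147 in MLL-AF9 control and 4.78 in PML-RARa control.

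Genes of the fetal let-7 and IGF2 circuit passed in 10 of 14 transcripts, with 6 higher and 2 lower. The RNA-binding protein gene Igf2bp3 was at 108 in NT control, 988 in HOXA9 control, 1023 in PML-RARa control and 1318 in MLL-AF9 control, 9.12-fold higher in HOXA9 than in NT (7.61 to 11.0), so NT was the low library. Igf2bp1 was at 4.96, 519, 772 and 10.6 in the same order. Lin28b (75.3 and 153) and Hmga2 (194 and 468) were higher, while Lin28a (570 and 238) and the noncoding H19 (136.5 and 23.2) were lower. Among 9 stefin A cluster transcripts, cysteine protease inhibitor genes that lie side by side and share sequence, 7 were lower. Stfa3 went from 365 to 24.9 and Stfa2 from 334 to 60.6, and the PML-RARa and MLL-AF9 libraries were at 281 and 309 for Stfa2 and at 114 and 86.8 for Stfa3. Ephrin and Eph receptor genes passed in 10 of 19 transcripts, with Epha2 (10.8 and 819) and Ephb2 (39.7 and 400.2) higher and Epha3 (117 and 1.66) and Efnb2 (160.5 and 23.2) lower. Regulators of G protein signalling were lower in 6 of 12 transcripts that passed (of 19), among them Rgs1 (661 and 111) and Rgs18 (1233 and 401), which is known from platelets, and Rgs11 was higher (64.5 and 766). Of 9 Toll-like receptor transcripts that passed (of 13), Tlr4, Tlr5, Tlr9 (13.2 and 59.8) and Tlr12 were higher and Tlr7 was lower. Tlr5, Tlr9 and Tlr12 passed through HOXA9 alone. Among Wnt ligands and frizzled receptors 7 of 29 passed, with Wnt10b (1.66 and 311), Fzd1 (24.0 and 112) and Fzd9 higher and Fzd4 (152 and 59.8) and Fzd3 lower.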
